A study of Mus musculus with 4 samples.

Results

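The 10 genes described here belong to the Ifi200 family of mouse chromosome 1: Ifi202b, Ifi203, Ifi204, Ifi205, Ifi206, Ifi207, Ifi208, Ifi209, Ifi211 and Ifi213. All 10 were found by symbol among the 31253 genes of the count tables. They were chosen from this gene cluster because earlier results of these data showed differences between the genotypes there. Their genotype values are therefore given as a description, with no p-value and no call. The glioma line CT2a, which is of C57BL/6 origin, had been implanted 14 days earlier, and the hemisphere with tumor was sorted for live CD45+ cells in 4 WT and 4 CaMKK2 KO animals. Both groups were labelled with a C57Bl/6 background. The knockout mice (CaMKK2-/-, lacking calcium/calmodulin-dependent protein kinase kinase 2) were provided by a collaborator and came from a line that was derived from or backcrossed to C57BL/6. The WT C57BL/6J mice were purchased at 6 to 8 weeks of age, and experiments were described as using matched female mice of 8 to 12 weeks. Each mouse was marked by its own hashtag antibody, and the 4 of a genotype were run together on 1 channel of the 10X platform, so genotype, source of the mice and channel cannot be told apart.

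Ifi200 genes, also called HIN-200 or PYHIN genes, are induced by interferons and encode proteins that bind DNA through a HIN domain. Most also carry a pyrin domain, through which proteins of this kind assemble into signalling complexes. Ifi204, a relative of human IFI16, acts as a DNA sensor upstream of STING. Ifi202b encodes a protein without a pyrin domain that can restrain the inflammasome formed by AIM2, the family member that senses DNA in the cytosol. Expression of Ifi202b is known to differ widely between inbred mouse strains. Ifi205 has been linked to expression of the inflammasome adaptor ASC.

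The members lay within 563 kb of chromosome 1, from 173468485 to 174031810 in GRCm38 (GENCODE M21). All were annotated as protein-coding. Ifi214 and Mndal, which are also PYHIN genes, lay among them, and Aim2 lay on the side of the lower coordinates. The annotated span of Mndal, from 173849126 to 173942491, held all of Ifi211 and most of Ifi203 on the same strand. The part of this overlap in the counts of the 3 genes was not tested. Promoter sequences from RefSeq (GRCm38.p6) were at hand for 9 of the 10 members, Ifi204 being the exception. The core of the interferon-stimulated response element, searched as GAAA, any 2 bases and GAAA again on both strands of the 250 bases before each start, was found in 7 of 10 promoter entries of the members. Of all 32851 promoters 978 held it, or 2.98%. The gamma-interferon motif, TTC and GAA with any 3 bases between them, was found in 1 of the 10 entries, that of Ifi202b, and in 7.02% of all promoters. The following windows cover the 80 bases before the RefSeq start, all on the minus strand except that of Ifi208, and show members whose levels are followed below. Capitals mark the interferon core.
Ifi213, chr1:173599273-173599352: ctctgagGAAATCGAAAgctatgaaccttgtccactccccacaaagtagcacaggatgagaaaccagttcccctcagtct
Ifi206, chr1:173491319-173491398: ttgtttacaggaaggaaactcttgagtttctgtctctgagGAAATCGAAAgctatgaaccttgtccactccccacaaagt
Ifi208, chr1:173673585-173673664: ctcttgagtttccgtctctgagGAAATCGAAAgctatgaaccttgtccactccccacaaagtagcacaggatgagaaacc
Ifi203, chr1:173942493-173942572: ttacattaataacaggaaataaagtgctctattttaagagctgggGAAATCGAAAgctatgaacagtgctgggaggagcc
Ifi202b, chr1:173982845-173982924: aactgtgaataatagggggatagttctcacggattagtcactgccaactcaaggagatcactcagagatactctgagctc
The windows of Ifi213, Ifi206 and Ifi208 carried the same 10 letters in capitals, as did those of Ifi203 and Ifi207, and the 250-base promoters of the first 3 shared an unbroken run of 135 bases. The letters were not in the window of Ifi202b. Another promoter entry of Ifi203, with the window chr1:173942673-173942752, held no interferon core. These are reference sequences, and none was read from the mice of the study.

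Because these genes are copies of each other, reads can be hard to place. Among the 91-base windows of each member's transcripts, the length of the cDNA read, the share also found in transcripts of another gene was 58.8% for Ifi211, most of it with Ifi205. It was 18.9% for Ifi209, 15.5% for Ifi205, 14.5% for Ifi206 and 11.4% for Ifi204. It was 7.61% for Ifi208, 4.69% for Ifi213, 3.54% for Ifi203, 1.38% for Ifi207 and 0% for Ifi202b. Reads of this 3' kit come mainly from transcript ends. Within the last 500 bases the share was 59.0% for Ifi211, 36.8% for Ifi209, 29.5% for Ifi205, 12.01% for Ifi206, 7.64% for Ifi208, 7.31% for Ifi213 and 0.972% for Ifi203, and it was 0% for Ifi204, Ifi207 and Ifi202b. Values of Ifi211, Ifi209 and Ifi205 in particular are uncertain for this reason.

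After filters, 5050 WT cells and 5632 CaMKK2 KO cells remained, with 11890210 to 20360454 unique molecular identifiers (UMIs) per mouse. Cells were placed in 12 immune classes by marker genes, and the UMIs of a mouse's cells in a class were added up. Levels are given as CPM, the usual scaling of counts to a common total of UMIs in that sum. In each of the 6 classes used for tests, all markers of its own list had UMIs in both genotypes. This does not measure purity, because the classes were gated on these markers and full lists had UMIs in other classes too. All 8 macrophage markers had UMIs in WT T cells, where they summed to 206 CPM, against 18826 CPM in WT macrophages. Camkk2, the deleted gene, was present at 23.6 to 28.0 CPM in WT macrophages and at 11.8 to 12.7 CPM in CaMKK2 KO macrophages. It did not overlap between genotypes in microglia and classical monocytes either. In NK cells it overlapped, at 10.6 to 16.7 CPM in WT against 8.87 to 15.8 CPM in CaMKK2 KO mice. It also overlapped in T cells, at 7.345 to 14.3 against 3.13 to 10.9 CPM, and in B cells. The part of the gene that was deleted is not given in the sources used here, so the remaining 3' counts check the labels only in part. WT mouse 1 stood apart: it had 36 T cells and 44 classical monocytes, against at least 194 and 133 in the other WT mice. Its summed CPM of 28 measured interferon-induced genes in macrophages was 3127, against 7295 to 9393 in the other WT mice and 7788 to 16730 in the CaMKK2 KO mice. Member values are therefore also given without it where that matters. The libraries shared 42 barcodes, of which 11 were among the kept cells of each genotype, and leaving these out kept every genotype and class count of called genes within 1.5 times.

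Ifi202b was present in CaMKK2 KO mice and was not detected in WT mice in any class. Not 1 UMI was counted among all 6689 WT barcodes, removed barcodes included, which allows a share of up to 0.0449% of barcodes with a UMI. The 7271 CaMKK2 KO barcodes held 24176 UMIs of the gene. In macrophages, the CaMKK2 KO mice had 271, 328, 189.5 and 400.3 CPM, and each of the 4 WT mice had 0. With the UMIs of the 4 CaMKK2 KO mice pooled, against a floor of 3 counts over the pooled WT group, this was at least 2144-fold higher. In classical monocytes, the cells that enter the tumor from blood, the CaMKK2 KO mice had 563, 694, 339 and 711 CPM, pooled at least 1749-fold above the same floor. In microglia, the resident macrophages of the brain, they had 302, 269, 222 and 235 CPM, pooled at least 778-fold above it. No mouse of one genotype came near the other in these 3 classes.

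Within CaMKK2 KO mice, Ifi202b followed the myeloid classes. The highest mean was that of classical monocytes, at 577 ± 172 CPM (SD, n = 4). It was followed by cDC2, conventional dendritic cells that present antigen mainly to CD4 T cells, with 388 ± 289, macrophages with 297 ± 89.1, cDC1 with 284 ± 122, microglia with 257 ± 36.2 and non-classical monocytes with 202 ± 121 CPM. The ranges of neighbours in this order overlapped between mice. Summed classical monocyte markers stood at 2757 CPM in CaMKK2 KO cDC2 and 2520 CPM in cDC1, and their part in these values was not tested. Neutrophils had 98.9 ± 157, migratory dendritic cells 83.6 ± 48.2 and plasmacytoid dendritic cells 40.0 ± 8.59 CPM. The lowest means were those of NK cells with 26.9 ± 3.96, T cells with 16.6 ± 10.4 and B cells with 3.05 ± 4.36 CPM. The neutrophil value rested mainly on CaMKK2 KO mouse 4, with 25 UMIs in 6 cells, of which 20 UMIs were in 1 cell. Summed macrophage markers stood at 3128 CPM in CaMKK2 KO neutrophils, against 558 CPM in WT neutrophils. The plasmacytoid dendritic cell value rested on 23 UMIs in 49 cells, and its lowest mouse, at 32.5 CPM, on 1 UMI in 3 cells. Macrophages were below classical monocytes by 0.95 ± 0.08 on the log2 scale (SE, adjusted p = 9.28e-06) and differed from microglia by 0.15 ± 0.16 (adjusted p = 0.552). The B cell value rested on 3 UMIs in 193 cells.

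By single cells, 85.0% of 1134 CaMKK2 KO macrophages held at least 1 Ifi202b UMI (95% Wilson interval 82.8 to 87.0%). The share was 92.2% of 1456 classical monocytes, 85.2% of 223 microglia, 14.1% of 822 NK cells, 9.76% of 891 T cells and 1.55% of 193 B cells. Median depth was 16148 UMIs in macrophages, 8716 in T cells and 4990 in B cells. With each cell thinned to 3000 UMIs, the shares were 46.0% in macrophages, 71.2% in classical monocytes, 7.03% in NK cells, 4.81% in T cells and 0.526% in B cells. Intervals over cells cover counting error only. Free RNA can give UMIs in cells that do not express a gene, and 3 genes of macrophages and monocytes were measured beside Ifi202b for this reason. The level of Lyz2 was 1.19% of its macrophage level in CaMKK2 KO T cells, 1.21% in NK cells and 1.40% in B cells. That of Csf1r was 1.67%, 1.25% and 1.65%, and that of Cd68 2.03%, 2.13% and 2.71%. Ifi202b stood at 5.13% of its macrophage level in T cells, 9.28% in NK cells and 1.00% in B cells. The part of free RNA in these levels was not tested. Among T cells, CaMKK2 KO CD4 T cells had 15.9 to 75.9 CPM and CD8 T cells 2.59 to 11.1 CPM, without overlap between mice. Regulatory T cells held 1 UMI in 151 cells. The difference between the T cell subsets was not tested.

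**Figure D1:**
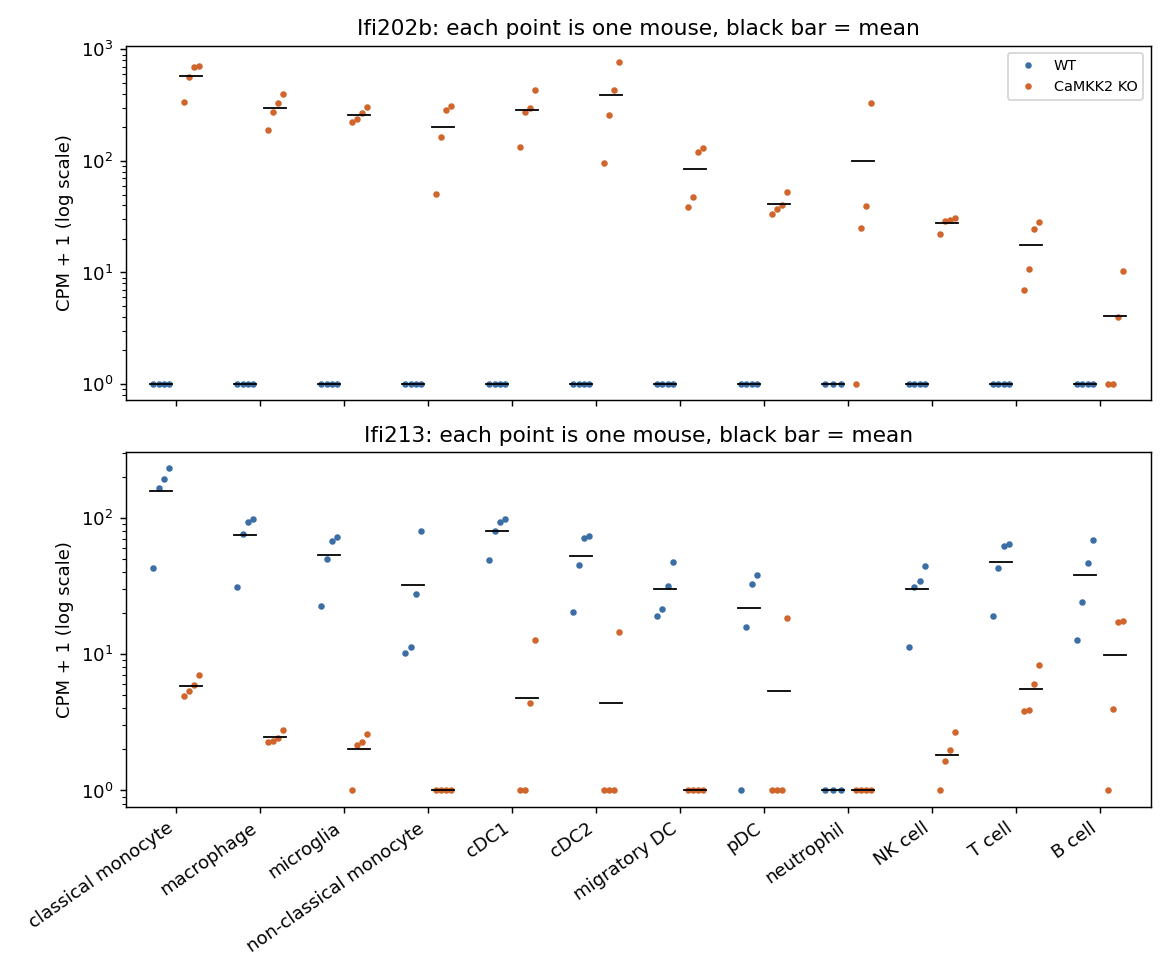
Level of Ifi202b (top) and Ifi213 (bottom) in 12 immune classes, as CPM + 1 on a log axis; each point is 1 mouse with cells in that class, and black bars are means. Ifi202b lies at 0 CPM in every WT mouse, and Ifi213 lies lower in CaMKK2 KO mice, without overlap in macrophages, microglia, classical monocytes, NK cells and T cells.

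Ifi213 went the other way, and some UMIs of it remained in CaMKK2 KO mice. Over all kept cells, WT mice had 26.9, 84.8, 115 and 74.3 CPM, and CaMKK2 KO mice had 2.699, 2.43, 2.06 and 5.30 CPM, or 5229 against 200 UMIs. The groups did not overlap. In macrophages, the WT mice had 29.9, 91.6, 97.3 and 75.2 CPM and the CaMKK2 KO mice 1.27, 1.79, 1.29 and 1.44 CPM. The means, 73.5 ± 30.6 and 1.45 ± 0.24 CPM, were 50.8-fold apart, and 60.9-fold without WT mouse 1. In classical monocytes the WT mean was 156 ± 80.6 CPM and the CaMKK2 KO mean 4.83 ± 0.91 CPM, a 32.3-fold difference. In T cells the values were 46.1 ± 21.1 and 4.52 ± 2.10 CPM, a 10.2-fold difference, and in NK cells 29.2 ± 13.7 and 0.82 ± 0.69 CPM, a 35.7-fold difference. In B cells the groups overlapped, at 11.7 to 67.5 CPM for WT against 0 to 16.4 CPM, on 24 and 10 UMIs. Ifi213 in CaMKK2 KO mice stood at 277.9% of its macrophage level in T cells and 638.5% in B cells. In WT mice it stood at 75.6% and 52.7%. Ifi208, with which it shared most windows, stood at 193.9% and 313.4% in CaMKK2 KO mice and 169.5% and 97.6% in WT mice. Ifi206 stood at 231.1% and 613.5% in CaMKK2 KO mice and 125.7% and 95.1% in WT mice. Whether the remaining Ifi213 UMIs came from misplaced reads of other members was not tested.

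Of the 12 classes, Ifi213 had no UMI in CaMKK2 KO non-classical monocytes, migratory dendritic cells and neutrophils, and the neutrophils had none in WT mice either. The 123 non-classical monocytes without a UMI allow a share of up to 2.44%, and the 105 migratory dendritic cells up to 2.86%. The gene was detected in 41.6% of 1440 WT macrophages, 62.4% of 699 classical monocytes, 31.9% of 670 T cells and 28.7% of 562 microglia. The CaMKK2 KO shares were 1.94%, 4.74%, 4.04% and 1.35%, at like median depths (15671 and 16148 UMIs in macrophages). Thinned to 3000 UMIs, macrophages had 15.3% in WT against 0.548% in CaMKK2 KO mice. Ifi202b was thus the 1 member at 0 in every class of a genotype.

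Ifi206, Ifi205 and Ifi207 were also lower in CaMKK2 KO mice in several classes, by less. The macrophage class did not hold the same mix of markers in both genotypes: summed classical monocyte markers in it stood at 1163 CPM in WT against 2167 CPM in CaMKK2 KO mice. Their part in the macrophage values was not tested. Ifi206 stood at 19.6, 78.4, 96.6 and 81.1 CPM in WT macrophages and at 13.5, 11.9, 6.27 and 21.6 CPM in CaMKK2 KO macrophages. WT mouse 1 fell within the CaMKK2 KO range and the other 3 WT mice did not. The ratio of the means was 5.18-fold, and 6.42-fold without WT mouse 1. In classical monocytes WT mice had 9.98, 142.5, 259 and 193 CPM against 31.5, 37.0, 19.8 and 47.4 CPM, a 4.45-fold ratio, and 5.84-fold without WT mouse 1, which lay below all CaMKK2 KO mice. In NK cells the groups did not overlap, with 22.1 to 82.3 CPM in WT against 10.3 to 15.8 CPM in CaMKK2 KO mice. In B cells the means were alike, at 55.5 ± 29.3 and 58.5 ± 36.5 CPM.

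Ifi205 was highest in cDC1, the dendritic cells that present antigen to CD8 T cells. The WT mice had 501, 839, 865 and 697 CPM there and the CaMKK2 KO mice 204, 183, 197 and 172 CPM, without overlap and 3.84-fold apart, on 20 to 38 WT and 8 to 21 CaMKK2 KO cells per mouse. In macrophages it had 11.8 to 52.0 CPM in WT against 8.04 to 17.3 CPM in CaMKK2 KO mice, which overlapped through WT mouse 1, and the means were 2.90-fold apart, or 3.58-fold without that mouse. In classical monocytes the ranges were 20.0 to 285 and 31.7 to 83.3 CPM. Without WT mouse 1, at 20.0 CPM, the groups did not overlap there and the means were 3.48-fold apart. In T, NK and B cells the gene was near 0, with at most 15 UMIs per class and genotype.

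Ifi207 was steady between WT mice in macrophages. WT macrophages had 239, 257, 247 and 266 CPM and CaMKK2 KO macrophages 204, 159.8, 180.1 and 225 CPM, a 1.31-fold difference without overlap. In microglia the WT mice had 202 to 276 CPM and the CaMKK2 KO mice 70.4 to 179 CPM, 2.07-fold apart and also without overlap. In classical monocytes the groups overlapped, at 413 ± 108.5 and 346 ± 39.9 CPM. WT mouse 1 was again the lowest of the WT macrophages, but close to the others.

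Ifi204, the STING-linked sensor, overlapped between genotypes in macrophages, microglia and classical monocytes. It had 226, 380.5, 354 and 323 CPM in WT macrophages and 356, 422, 239 and 492 CPM in CaMKK2 KO macrophages. In classical monocytes the means were 764 ± 403 and 863 ± 241 CPM. In microglia the fitted log2 fold change of Ifi204 was -0.45 ± 0.22. Without WT mouse 1, at 200.1 CPM there, the WT mean was 350 CPM, 1.535-fold above that of CaMKK2 KO mice. In T cells, by contrast, WT mice had 10.8, 5.50, 10.6 and 9.42 CPM and CaMKK2 KO mice 31.2, 24.5, 23.3 and 30.0 CPM, a 3.01-fold difference without overlap on 59 and 248 UMIs. CD8 T cells alone had 4.17 to 13.2 CPM in WT against 19.2 to 31.0 CPM in CaMKK2 KO mice. B cells did not overlap either, with 5.81 to 21.4 and 23.1 to 44.3 CPM on 10 and 37 UMIs. NK cells overlapped, at 40.3 ± 16.1 and 31.8 ± 3.99 CPM. Ifi204 in T cells stood at 2.77% of its macrophage level in WT and 7.58% in CaMKK2 KO mice, while Lyz2 stood at 1.33% and 1.19%, and Csf1r, another gene of macrophages, at 1.77% and 1.67%. Whether the difference between T cells and the myeloid classes is itself larger than the spread was not tested.

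The remaining members overlapped between the genotypes in macrophages. Ifi211 had 70.7 to 165 CPM in WT against 56.8 to 117 CPM in CaMKK2 KO macrophages, and Ifi208 had 10.5 to 40.1 and 12.9 to 22.6 CPM. Without WT mouse 1 neither overlapped, and the WT means were 1.85-fold and 1.998-fold above those of CaMKK2 KO mice. Ifi209 had 54.6 to 155 and 63.5 to 188 CPM, with means of 126 ± 47.8 and 128 ± 51.9 CPM. Without WT mouse 1, at 54.6 CPM, the WT mean of Ifi209 was 149 CPM and lay 1.16-fold above that of CaMKK2 KO mice. Ifi203 had 73.1, 195, 226 and 207 CPM in WT against 322, 249.1, 217 and 339 CPM in CaMKK2 KO macrophages, where only WT mouse 3 reached the CaMKK2 KO range. Without WT mouse 1 the CaMKK2 KO mean of Ifi203 was 1.35-fold above the WT mean. Over the 9 members other than Ifi202b, macrophages had a summed 1223 ± 328 CPM in WT against 1112 ± 261 CPM in CaMKK2 KO mice. The same sum was 3083 ± 1674 and 2534 ± 629 CPM in classical monocytes and 617 ± 204 and 596 ± 155 CPM in T cells, overlapping in each. In microglia it was 980 ± 308 CPM in WT against 590.5 ± 204 CPM in CaMKK2 KO mice. WT mouse 1, at 578 CPM, lay within the CaMKK2 KO range of 390 to 876 CPM there, and the other WT mice, at 929 to 1302 CPM, lay above it.

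**Figure D2:**
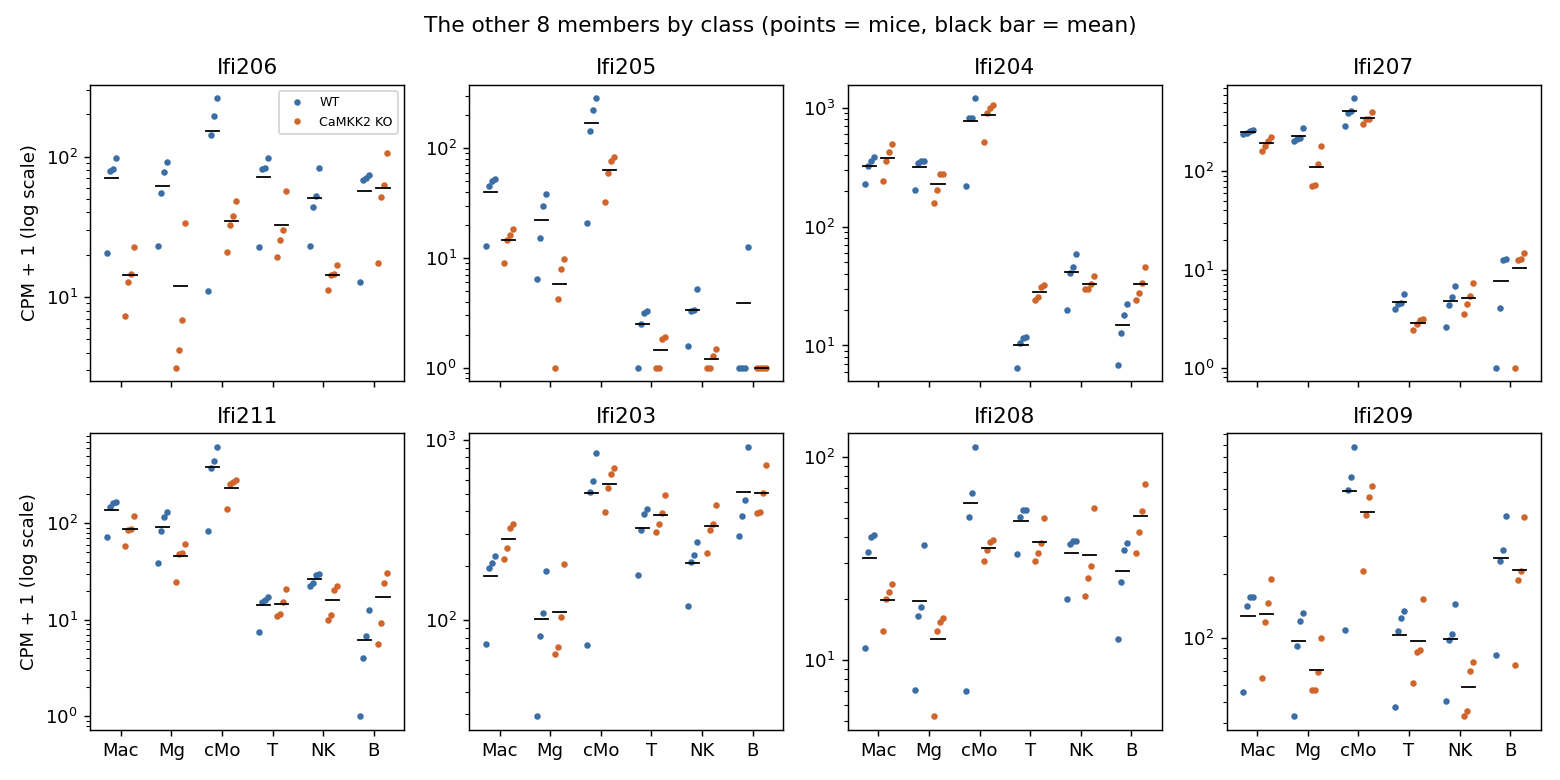
Level of the other 8 members in macrophages (Mac), microglia (Mg), classical monocytes (cMo), T cells, NK cells and B cells, as CPM + 1 on a log axis; points are mice and black bars are means. Ifi204, Ifi205, Ifi207 and Ifi211 drop from the myeloid to the lymphoid classes.

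Among members with at least 200 UMIs in a class, counts of those whose groups did not overlap were taken beside the share of all genes. Ifi202b reached that number through the CaMKK2 KO mice alone and is in the counts of macrophages, microglia, classical monocytes and NK cells. With 131 UMIs in T cells and 3 in B cells it is not in those of T and B cells. Other members also passed through the group where they were high. Ifi213 had 363 WT against 37 CaMKK2 KO UMIs in T cells and 200 against 9 in NK cells. In T cells Ifi204 had 59 in WT against 248 in CaMKK2 KO mice. The groups did not overlap for 3 of 10 members in macrophages, against 13.4% of all genes, 3 of 8 in microglia (12.5%), 2 of 10 in classical monocytes (11.1%), 2 of 7 in T cells (11.8%), 4 of 8 in NK cells (11.4%) and 0 of 2 in B cells (13.7%). Without WT mouse 1, 7 of 10 members did not overlap in macrophages (17.0% of all genes), 6 of 10 in classical monocytes (15.4%) and 4 of 7 in T cells (15.9%). No other mouse was left out for these counts. CaMKK2 KO mouse 3 was also low and was kept. Over all its kept cells the interferon-induced genes summed to 6844 CPM, against 11440 to 19070 CPM in the other CaMKK2 KO mice. The members summed to 877 CPM in it, against 1554 to 2471 CPM. Since the members were chosen on this contrast, nothing is read from these counts. By edgeR, the fitted log2 fold change of Ifi213 was -5.66 ± 0.46 (SE) in macrophages, -5.39 ± 0.66 in microglia, -5.03 ± 0.44 in classical monocytes, -4.64 ± 0.50 in NK cells and -3.67 ± 0.32 in T cells. That of Ifi206 was between -2.47 ± 0.49 in macrophages and -1.47 ± 0.30 in T cells. In microglia that of Ifi206 was -2.38 ± 0.63, and -3.67 without CaMKK2 KO mouse 1.

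**Figure D3:**
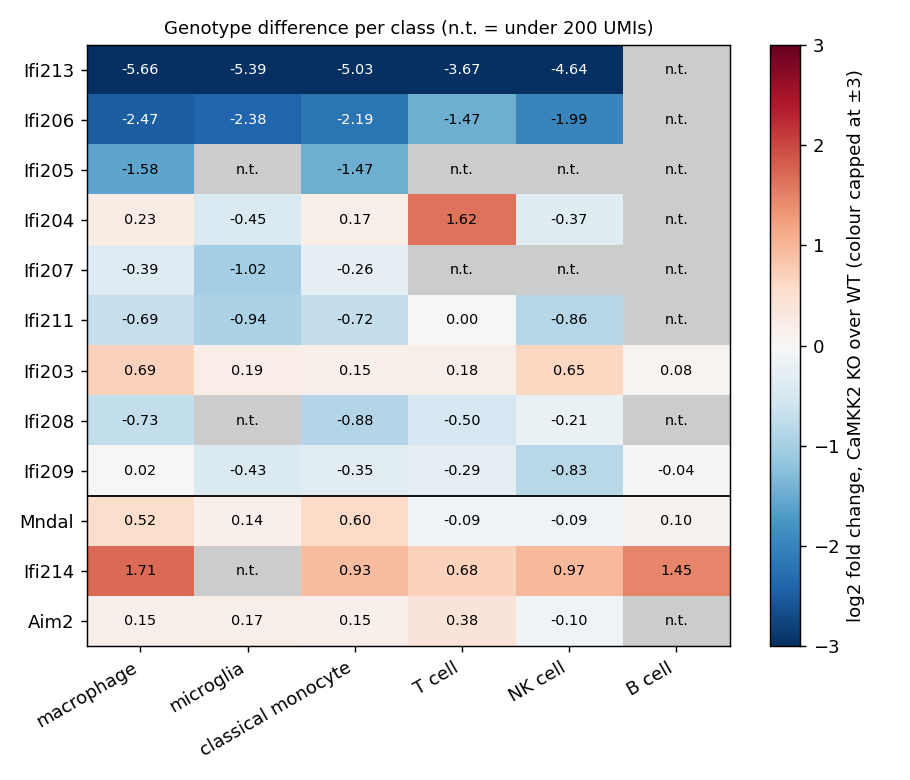
Fitted log2 fold change between CaMKK2 KO and WT mice for 9 members (above the line) and 3 other PYHIN genes (below it) in 6 classes; n.t. marks genes with under 200 UMIs in a class, and Ifi202b is left out because WT mice had no UMI. Ifi213 runs from -5.66 to -3.67, Ifi206 is next, and Ifi204 is at 1.62 in T cells and between -0.45 and 0.23 in the myeloid classes.

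How the members are spread over cell types was not used to choose them, so contrasts between classes were tested within each genotype by edgeR, with the mouse as a block. Between macrophages and T cells, 64.4% of all genes differed in the WT group, against 67.3% in the CaMKK2 KO group. Several members had few UMIs in T cells and entered the fit through macrophages alone, so their values are given without p. In WT mice, Ifi207 had 25 UMIs in T cells and 5972 in macrophages (log2 fold change 6.11 ± 0.17), Ifi204 had 59 and 7427 (5.30 ± 0.18), Ifi205 had 13 and 891 (4.58 ± 0.24), and Ifi211 had 88 and 3152 (3.57 ± 0.20). The same 4 genes stood higher in macrophages of CaMKK2 KO mice, by 6.66 ± 0.17, 3.73 ± 0.15, 5.12 ± 0.48 and 2.64 ± 0.14, on 17, 248, 3 and 117 UMIs in T cells. Ifi202b stood higher by 4.30 ± 0.20, on 131 UMIs in T cells. Of the members with at least 200 UMIs in each of both classes, Ifi203 and Ifi208 were higher in T cells. Ifi203 was at -0.89 ± 0.11 in WT mice (adjusted p = 3.99e-06) and at -0.44 ± 0.09 in CaMKK2 KO mice (adjusted p = 0.0016, and 0.0672 by DESeq2). Ifi208 was at -0.53 ± 0.15 (adjusted p = 0.00514) and -0.98 ± 0.15 (adjusted p = 0.000215). Ifi213 was higher in macrophages of WT mice, at 0.68 ± 0.11 (adjusted p = 8.99e-05). Ifi206 did not differ detectably in WT mice (-0.03 ± 0.10, adjusted p = 0.832) and was higher in T cells of CaMKK2 KO mice (-1.24 ± 0.16, adjusted p = 6.71e-05), and the change between genotypes was not tested. Ifi209, at 0.30 ± 0.10 and 0.40 ± 0.12, lost its call in WT mice under a stricter gate (adjusted p = 0.0939), without WT mouse 2 (adjusted p = 0.202) and without WT mouse 3 (adjusted p = 0.0601), and in CaMKK2 KO mice without mouse 1 or 2 (adjusted p = 0.0569 and 0.0589).

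Against B cells, 46.2% of all genes differed in the WT group, against 48.6% in CaMKK2 KO mice. Few members reached 200 UMIs in B cells. Ifi203 did in both genotypes and was lower in macrophages, by log2 values of -1.45 ± 0.16 (adjusted p = 3.11e-18) and -0.83 ± 0.17 (adjusted p = 8.86e-05). Ifi209 did in CaMKK2 KO mice and was lower in macrophages at -0.66 ± 0.18, a call that was lost without CaMKK2 KO mouse 4 (adjusted p = 0.0616). The other members rested on macrophages. Ifi204, on 10 UMIs in WT and 37 in CaMKK2 KO B cells, stood higher in macrophages by 4.497 ± 0.31 and 3.63 ± 0.23, and Ifi207, on 4 and 12 UMIs, by 5.33 ± 0.39 and 4.18 ± 0.31.

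Against classical monocytes, all 9 tested members were lower in macrophages in both genotypes. In either direction, 47.7% of all genes differed in WT mice, against 46.0% in the CaMKK2 KO group. Those called lower in macrophages were 1372 of 8447 genes in WT and 1546 of 8477 in CaMKK2 KO mice. The tested set held Ifi213 in WT mice and Ifi202b in CaMKK2 KO mice, with the other 8 members in both, and each had at least 200 UMIs in each class. The median log2 difference of the members was -1.10 in WT and -1.19 in CaMKK2 KO mice, against 0.18 and 0.10 for all genes tested. Ifi205 differed most, by -2.01 ± 0.22 (adjusted p = 5.8e-05) and -2.19 ± 0.12 (adjusted p = 8.61e-07). Ifi207 differed least, by -0.69 ± 0.13 (adjusted p = 0.0017) in WT mice. Ifi208 in WT mice (-0.86 ± 0.21) was not called without WT mouse 3 (adjusted p = 0.0698).

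Against microglia, 30.6% of all genes differed in the WT group, against 26.5% in CaMKK2 KO mice. Among members with at least 200 UMIs in each class, Ifi203, Ifi209, Ifi211 and Ifi213 were higher in macrophages of WT mice, and Ifi203, Ifi204, Ifi207 and Ifi209 in those of CaMKK2 KO mice. Ifi203 differed by 0.93 ± 0.17 (adjusted p = 0.00295) in WT and 1.39 ± 0.22 (adjusted p = 0.000481) in CaMKK2 KO mice, and this call held in both genotypes under every alternative. Ifi204, Ifi206 and Ifi207 did not pass in WT mice, at 0.05 ± 0.07 (adjusted p = 0.642), 0.14 ± 0.13 (adjusted p = 0.44) and 0.16 ± 0.08 (adjusted p = 0.156, and 0.0481 with TMM scaling). With a stricter gate, Ifi204, Ifi207 and Ifi209 lost their calls in CaMKK2 KO mice (adjusted p = 0.183 to 0.32), as all 3 did without CaMKK2 KO mouse 2 (adjusted p = 0.0517 to 0.109) and Ifi209 did without CaMKK2 KO mouse 4 (adjusted p = 0.0708). In WT mice, Ifi209 was not called without mouse 1, 2 or 3 (adjusted p = 0.0537 to 0.0714), and Ifi213 was not called without mouse 2 or with doublets kept (adjusted p = 0.0533 and 0.06). Summed markers of classical monocytes stood at 508 CPM in WT microglia, 1163 CPM in WT macrophages, 952 CPM in CaMKK2 KO microglia and 2167 CPM in CaMKK2 KO macrophages. Their part in these differences was not tested.

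**Figure D4:**
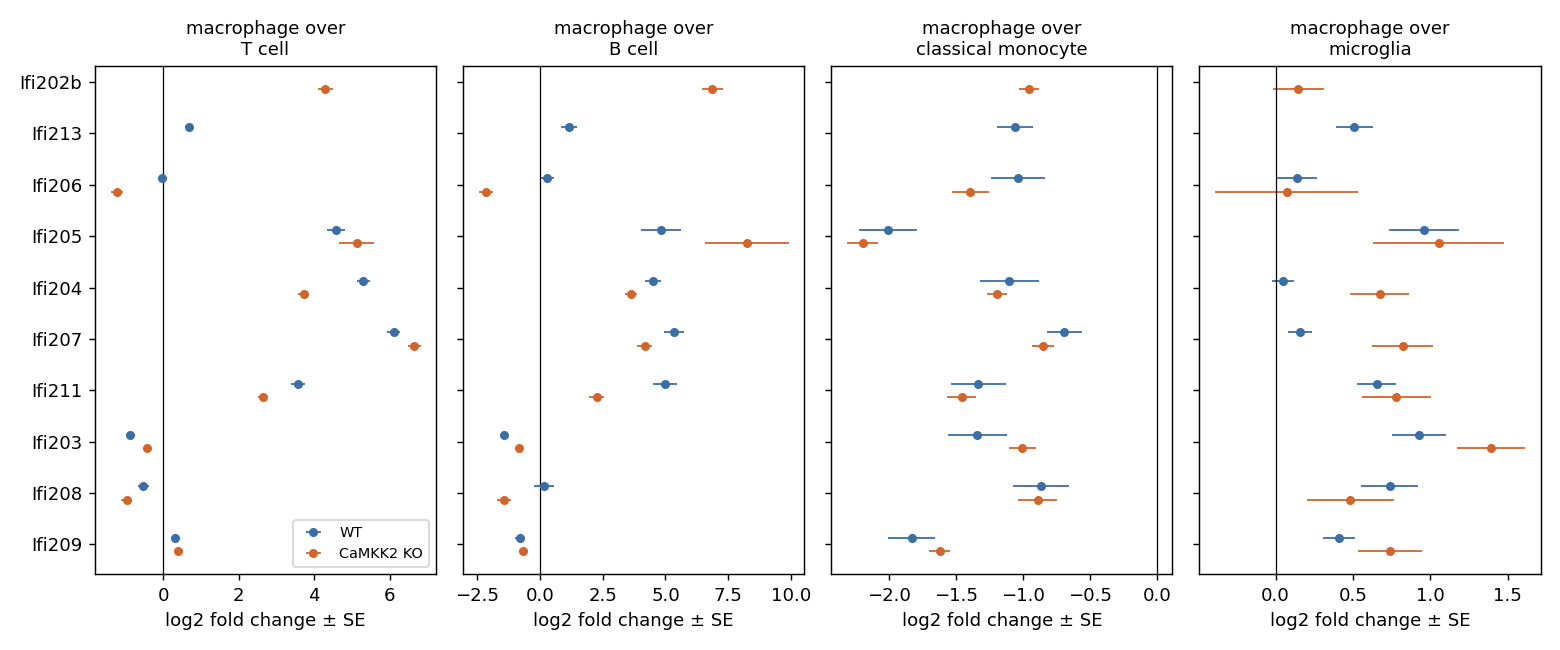
Log2 fold change of the 10 members in macrophages over T cells, B cells, classical monocytes and microglia, with standard errors, in WT and CaMKK2 KO mice; members with under 200 UMIs in a contrast have no point. All points lie below 0 against classical monocytes, and Ifi204, Ifi205, Ifi207 and Ifi211 lie above 2 against T and B cells in both genotypes, on few UMIs in the lymphoid cells.

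Of the other PYHIN genes listed, Mndal, Ifi214 and Aim2 were measured. Ifi214, which lies between Ifi206 and Ifi213, was higher in CaMKK2 KO macrophages, which had 31.2, 36.4, 19.3 and 64.3 CPM against 6.07, 13.4, 13.6 and 11.8 CPM in WT mice. The fitted log2 fold change was 1.71 ± 0.37, and it was the 1 of these 3 genes called in macrophages, where 2.49% of all genes were. In T cells it had 7.17 to 55.1 and 57.4 to 112 CPM, without overlap, but did not pass the test. Ifi214 shares 91-base windows with Ifi209, at 8.18% of its own, and 20.5% of those in the last 500 bases are shared. Mndal had 211 ± 83.8 and 303 ± 58.8 CPM in macrophages, which overlapped. In dendritic cells it was higher in CaMKK2 KO mice without overlap, at 298 ± 94.1 against 675 ± 146 CPM in cDC1 and 243 ± 124 against 889 ± 272 CPM in cDC2, and neither was tested. Summed classical monocyte markers stood at 1409 CPM in WT cDC2 against 2757 CPM in CaMKK2 KO cDC2, and at 2479 and 2520 CPM in cDC1. Their part in these values was not tested. Aim2 had 40.7 to 47.1 and 40.7 to 52.3 CPM in macrophages, and its log2 fold change was between -0.10 and 0.38 in the 5 classes tested. The members next to Ifi214, Ifi206 and Ifi213, stood lower in CaMKK2 KO macrophages. Members beyond Ifi213 went both ways, with Ifi202b higher and Ifi205 lower.

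Partners of the family in DNA sensing and inflammasomes, among them Casp1, Pycard and Nlrp3, were called in 0 of 13 cases in macrophages by edgeR at the adjusted threshold (1893 of all 9075 genes had an unadjusted p under 0.05). Their median log2 fold change was 0.33 there, against -0.07 for all genes. Of all genes, 2.49% were called in macrophages. In T cells 1 of 9 was called, Cgas, the sensor that makes the ligand of STING, at 0.96 ± 0.22 (adjusted p = 0.0479). The share of all genes called in T cells was 1.72%. Calls in T cells varied: 122 genes were called in all, and 32 to 183 with 1 mouse left out. Of the type I interferon-induced genes, 1 of 28 was called in macrophages, microglia and classical monocytes alike, and it was Ifi44 each time, higher in CaMKK2 KO mice by 4.12 ± 0.47, 4.08 ± 0.41 and 5.23 ± 0.34. The shares of all genes called in these classes were 2.49%, 1.27% and 1.86%. The list's median was 0.54 in macrophages against -0.07 for all genes, and 0.11 in microglia against -0.11. It was 0.34 in classical monocytes against -0.01, and 0.34 in T cells against 0.08. In T cells 0 of 24 were called by edgeR, against 1.72% of all genes, and 1256 of all 7109 genes had an unadjusted p under 0.05. In NK cells 4 of 25 were called, against 3.09% of all genes. Ifi44, Ifi27l2a and Xaf1 were higher and Cxcl10 was lower, at -1.51 ± 0.34. In B cells 4 of 10 were called, all higher in CaMKK2 KO mice: Isg15 by 4.35 ± 0.80, Zbp1 by 2.42 ± 0.42, Ifi27l2a by 1.77 ± 0.36 and Bst2 by 1.57 ± 0.42. The share of all genes called in B cells was 5.5%. Calls in B cells were not stable: 60 genes were called in all, 17 with doublets kept, and 0 to 130 with 1 mouse left out. The median of the 10 was 1.78 there, against 0.02 for all genes. Of the 28 measured genes of the list, only these 10 passed the filter on UMIs in B cells. The filter added the UMIs of both genotypes, so a gene could pass through the CaMKK2 KO mice alone. The part of the filter in the B cell count, its direction and the median was not tested. The summed CPM of the list in T cells was 1129 to 4005 in WT and 4610 to 7352 in CaMKK2 KO mice, without overlap, and in B cells it was 597 to 2127 against 2403 to 8129. In classical monocytes it was 4656 to 22900 and 15570 to 27930, with the lowest value of each genotype in WT mouse 1 and CaMKK2 KO mouse 3. The same 2 mice had the lowest sum of the 10 members in classical monocytes, at 849 and 1987 CPM.

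Other genes of chromosome 1 within 5 Mb of the cluster were counted in the same fits. In macrophages 5 of 55 tested neighbours outside the family were called, or 9.09%, against 2.49% of all genes. The counts were 3 of 46 in microglia, or 6.52% against 1.27%, and 3 of 49 in classical monocytes, or 6.12% against 1.86%. They were 0 of 38 in T cells against 1.72%, 1 of 37 in NK cells against 3.09%, and 0 of 6 in B cells against 5.5%, where 265 of 1091 genes had an unadjusted p under 0.05. Their median log2 fold change in macrophages was 0.00. Genes called in at least 2 classes were Igsf8, Tagln2 and Slamf6, which lay 1.46, 1.25 and 1.81 Mb from the centre of the cluster, all on the side of the lower coordinates. Igsf8 was higher in CaMKK2 KO macrophages by 0.56 ± 0.09 (adjusted p = 0.0095) and in microglia by 1.31 ± 0.15 (adjusted p = 0.000782). Tagln2, which encodes an actin-binding protein, was at -0.51 ± 0.09 and -1.22 ± 0.18 (adjusted p = 0.006). Slamf6, a receptor of the SLAM family, was higher by 0.92 ± 0.18 in macrophages and 1.26 ± 0.21 in classical monocytes (adjusted p = 0.0154).

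**Figure D5:**
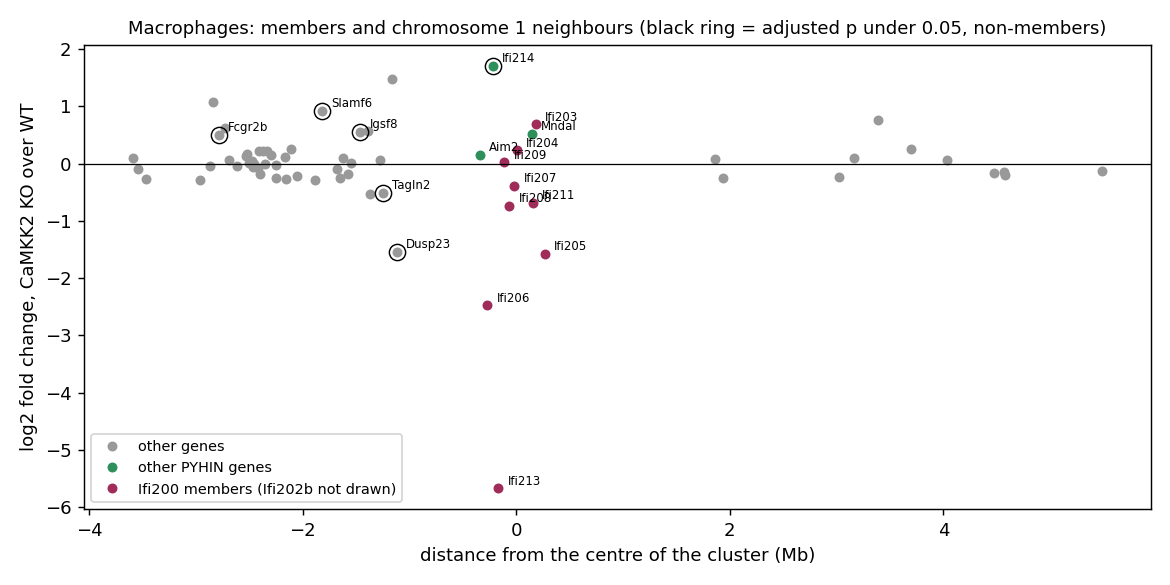
Fitted log2 fold change between CaMKK2 KO and WT macrophages against distance from the centre of the Ifi200 cluster, for 9 members, 3 other PYHIN genes and 55 other chromosome 1 genes; rings mark non-members with an adjusted p under 0.05. Most neighbours lie near 0, while members run from -5.66 for Ifi213 to 0.69 for Ifi203.

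Genes outside the family with the pattern most like that of Ifi202b were Ifi44l, with a Pearson correlation of 0.93 over 95 sums of a mouse and class, Eif3j2 with 0.82, Gm8797 with 0.81, Gm4841 with 0.76 and Ifi44 with 0.74, among 11179 genes. The sums share libraries and classes, so these are descriptions. Ifi44l likewise had 0 UMIs in all 47 WT sums, and had 10446 UMIs over 48 CaMKK2 KO sums. Gm8797 had 427 and 11225 UMIs. For Ifi213 the 5 genes were Zfp984, Pttg1, Gm34084, Gm31597 and Erdr1, with correlations of 0.60 to 0.65. Gm34084 had 2003 UMIs over the WT sums and 23 over the CaMKK2 KO sums.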

How the data were processed

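Single-cell RNA-seq with hashtag libraries was used from 4 WT and 4 CaMKK2 KO mice. The authors demultiplexed runs with bcl2fastq 2.20 and aligned reads to mm10 with Cell Ranger 4.0.0 and STAR 2.7.5c. The annotation release is not given in the sources used here. The deposited files hold raw UMI counts per gene and barcode, not normalized, 97819218 UMIs in WT and 92845258 in CaMKK2 KO.

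Hashtags were assigned with HTODemux (Seurat 5.3.0, quantile 0.99), leaving 5974 WT and 6696 CaMKK2 KO barcodes of a single mouse. Barcodes under 200 genes or beyond 3 median absolute deviations in UMIs, genes or mitochondrial share were removed (744 and 922), as were the highest Scrublet scores (175 and 138). The members and gene lists were chosen with earlier results of these data known. The named genes were all members, the other PYHIN genes, the listed sensors and interferon-induced genes, neighbours called in at least 2 classes, and the 5 most alike to Ifi202b and Ifi213.

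A cell took the class whose markers scored highest, with at least 3 markers detected (2 for short lists). How markers were scored was settled with the data in view. Cells near the limit between classes (237 WT, 351 CaMKK2 KO) or without class (131 and 81) entered no class. UMIs were summed per mouse and class. CPM sums of a mouse held 2083428 to 7235011 UMIs in macrophages and 59244 to 429199 in B cells, the least of the 6 classes tested; neutrophil and some dendritic cell sums held fewer. Genes with at least 200 UMIs were tested in edgeR 4.0.16 by quasi-likelihood, scaled to total counts, with Benjamini-Hochberg adjustment over all genes tested at 0.05. Standard errors are of the log2 scale. The scripts were tested on simulated counts. Alternatives were TMM scaling, DESeq2 1.42.0, a filter of 50 UMIs, kept outliers or doublets, a stricter gate, each mouse left out, and, chosen after seeing the data, barcodes of both libraries left out. Other software was R 4.3.3 and pandas 2.3.3. No column of other samples was present.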

Additional observations from a re-analysis of the deposited data

Results flagged for a closer look

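In groups of 4 mice, 6 values of the members lay apart from the other 3 mice by more than the 95% limit of Dixon's test, among 108 groups of member, class and genotype. By chance about 1 group in 20 is expected to do so. Low values of WT mouse 1 made up 4 of the 6: Ifi204 in microglia at 200.1 CPM, Ifi206 in B cells at 11.7 CPM, Ifi208 in NK cells at 18.9 CPM and Ifi209 in macrophages at 54.6 CPM. CaMKK2 KO mouse 1 was high for Ifi206 in microglia, at 32.8 CPM, and CaMKK2 KO mouse 3 was low for Ifi207 in B cells, at 0 CPM. The B cell values rest on few UMIs.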

How the results depend on the processing

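Direction and call were followed for the counts of called genes and for each member's class contrasts. By genotype, DESeq2 called 543 genes in macrophages, 214 in microglia and 351 in classical monocytes. Keeping outlying cells gave 171 in microglia and 494 in NK cells, and the stricter gate 41 and 74. The filter of 50 UMIs gave 198 in T cells and 109 in B cells, and keeping doublets 17 in B cells. Macrophages against microglia gave 1685 by DESeq2 and 1096 under the stricter gate in WT, and 393 under that gate in CaMKK2 KO. With 1 mouse left out, counts were 104 to 376 in macrophages, 36 to 116 in microglia, 52 to 186 in classical monocytes, 32 to 183 in T cells, 79 to 850 in NK cells and 0 to 130 in B cells. The 0 arose in edgeR without WT mouse 2 or CaMKK2 KO mouse 2, with 189 and 168 genes at an unadjusted p under 0.05; DESeq2, run on all mice alone, called 70. Class counts with 1 mouse left out were, for macrophages against T cells, 4461 to 5468 in WT and 4756 to 5329 in CaMKK2 KO; against B cells 2496 to 3353 and 2883 to 3084; against classical monocytes 2370 to 3950 and 2604 to 3663; against microglia 1560 to 2247 and 1399 to 1708. The cause of these moves was not tested. In the class contrasts of the members no called value changed sign, 9 calls were lost under another setting and 21 with 1 mouse left out, and 1 was gained. Of the members' genotype fold changes, 10 moved by at least the SD between mice on the log2 scale under another setting, and 3 with 1 mouse left out. TMM moved the share of higher calls from 40.7% to 56.3% in macrophages, 51.2% to 69.9% in microglia, 63.1% to 33.3% in T cells and 66.8% to 56.6% in NK cells, and the median of all genes in microglia from -0.11 to 0.00. No paired analysis was possible because hashtag numbers name different mice in each genotype. Of the tested classes, depth limits B cells most.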

Other observations

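In conventional dendritic cells, where no test was run, Ifi213 stood at 47.7, 97.3, 79.3 and 91.4 CPM in WT cDC1 and at 3.40, 0, 11.6 and 0 CPM in CaMKK2 KO cDC1. In cDC2 it stood at 19.4 to 72.9 CPM in the WT mice, and UMIs were found in CaMKK2 KO mouse 4 alone, at 13.6 CPM. The groups did not overlap in either class. Ifi205 overlapped in cDC2, with 80.1 to 264 CPM for WT against 103 to 170.3 CPM, while it did not in cDC1. The overlap in cDC2 came from WT mouse 1, at 80.1 CPM, and the other WT mice had 187 to 264 CPM.

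Regulatory T cells, which restrain other T cells, held Ifi204 at 0, 0, 16.3 and 7.24 CPM in WT mice and at 37.3, 55.9, 22.1 and 59.7 CPM in CaMKK2 KO mice, on 5 and 43 UMIs in 105 and 151 cells. All 4 CaMKK2 KO mice were above all 4 WT mice, but WT mouse 1 had only 6 of these cells, with 31529 UMIs. There 1 UMI equals 31.7 CPM, which is above CaMKK2 KO mouse 3. The same cells held 1 UMI of Ifi202b. These values were chosen after they were seen, and the difference was not tested.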
